A study of Mus musculus with 2 samples.

Results

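The miR-30 family of microRNAs was described in embryonic mouse intestine (strain B6NCrl, age 14.5 days), from which 2 small RNA libraries had been sequenced. Its 6 genes, Mir30a, Mir30b, Mir30c-1, Mir30c-2, Mir30d and Mir30e, were chosen by name and Ensembl identifier from the 1973 microRNA genes counted, and all 6 were found in both libraries. Both libraries belong to a single group, for which the labels name no treatment and no mutation, and no second age or organ is compared here. The labels call the 2 libraries biological replicates and describe each as 1 pup's intestine. Their sex entry reads pooled male and female, which a single pup cannot be, and the donor record is the same for both. Replicate 1 was collected on day 17 and replicate 2 on day 15 of the same month, so collection day and replicate cannot be told apart.

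MicroRNAs are short RNAs that are cut from hairpin precursors, which have a 5′ and a 3′ arm, and that guide repression of messenger RNAs. The choice of target rests mainly on the seed, bases 2 to 8 of the mature strand. The miR-30 genes give 5′ arm products with a common seed and 3′ arm products with other seeds. Described targets of the 5′ arm include Snai1, a transcription factor of epithelial-mesenchymal transition, and Becn1, an autophagy gene. In human intestinal epithelial cell lines the family has been reported to act on SOX9, a factor of progenitor cells.

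The mature sequences below show what the members share and where they part, with the seed in capitals and each sequence 5′ to 3′. They come from RefSeq on GRCm38.p6, in which Mir30a, Mir30c-1, Mir30c-2 and Mir30e, 4 of the 6 members, were matched. Mir384, the only other gene of that table with the same 5′ arm seed, is shown as well.
miR-30e-5p (chr4:120772660-120772681, minus strand): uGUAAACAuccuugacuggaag
miR-30a-5p (chr1:23272274-23272295, plus strand): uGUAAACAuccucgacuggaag
miR-30c-5p (from both Mir30c-1 and Mir30c-2): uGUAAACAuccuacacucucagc
miR-384-5p (chrX:105344332-105344354, minus strand): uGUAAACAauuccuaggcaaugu
miR-30e-3p: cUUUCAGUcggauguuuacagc
miR-30a-3p: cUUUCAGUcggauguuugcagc
miR-30c-1-3p: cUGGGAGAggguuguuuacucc
miR-30c-2-3p: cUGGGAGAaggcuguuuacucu

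Counted from 1 at the 5′ end, miR-30e-5p and miR-30a-5p were identical at 21 of 22 bases and differed by U13C. Their 3′ arm products differed by A18G alone. From miR-30e-5p, miR-30c-5p differed at 5 of 22 bases (U13A, G14C, G18C, G19U and A20C), all after a common start of 12 bases. MiR-384-5p shared the first 8 bases with miR-30e-5p and 11 of 22 in all. Thus a read of miR-30e-5p or miR-30a-5p had to be at least 13 bases long to point to a single annotated microRNA hairpin, and a read of either 3′ arm product at least 18.

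The 2 miR-30c genes could not be told apart by their 5′ arm. The whole of miR-30c-5p, 23 bases, occurs in both hairpins, and the identical stretch reaches 28 bases. These hairpins are printed with that stretch in capitals, because it bears on every value of the pair.
Mir30c-1 (chr4:120769534-120769622, minus strand): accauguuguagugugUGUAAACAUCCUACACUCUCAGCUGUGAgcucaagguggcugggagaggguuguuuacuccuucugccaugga
Mir30c-2 (chr1:23291701-23291784, plus strand): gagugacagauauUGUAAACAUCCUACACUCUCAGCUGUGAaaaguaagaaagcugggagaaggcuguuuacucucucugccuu
Reads that aligned in several places were left unassigned, and they made up 26.5% of the reads of replicate 1 and 26.6% of replicate 2. The tables do not say how many of them were miR-30c-5p. A read that lies wholly within the identical stretch matches both hairpins, so it could not be assigned to either. The levels of Mir30c-1 and Mir30c-2 given below therefore leave out full-length miR-30c-5p reads, in a number not known, and are uncertain.

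Levels are given as CPM, counts on the gene's own strand scaled to a library total of 1000000 such counts. Replicate 1 held 15090126 such counts and replicate 2 held 3903472, a 3.87-fold difference in depth. A count covers the whole hairpin and does not separate the 5′ from the 3′ arm. Intervals cover only the counting error of reads within a library. PCR copies were counted as reads, so the intervals may be too narrow even for that. A gene is called detected where each library has 10 counts or more. All marker genes of intestinal epithelium (Mir215, Mir192, Mir194-1 and Mir194-2) and of smooth muscle (Mir145a and Mir143) were detected. Of the neuronal genes Mir124a-1, Mir124a-2 and Mir124a-3 none was detected, but these share sequence with each other.

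The family took 3.25% of the gene counts in replicate 1 (95% Wilson interval 3.24 to 3.26%) and 3.61% in replicate 2 (3.59 to 3.63%). The mean share was 3.43 ± 0.257% (SD, n = 2), which rested almost wholly on 3 genes. Mir30e, Mir30a and Mir30d together held 99.3% of the family's counts in either library. Mir30b, Mir30c-1 and Mir30c-2 held 0.712% in replicate 1 and 0.674% in replicate 2.

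Mir30e (ENSMUSG00000065409.1) led the family with 21047 CPM in replicate 1 and 23399 CPM in replicate 2, from 317598 and 91336 counts. It ranked 13 of all genes by mean level, at 22223 ± 1663 CPM. Its hairpin (GRCm38 chr4:120772606-120772697, minus strand) lies within Nfyc on the same strand. It is printed here with both mature arms in capitals, as the source of most miR-30 counts.
Mir30e: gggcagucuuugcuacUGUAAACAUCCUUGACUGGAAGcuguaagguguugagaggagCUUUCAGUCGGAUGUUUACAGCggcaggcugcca

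Mir30a (ENSMUSG00000065405.2; chr1:23272269-23272339, plus strand), the member that differs from Mir30e by a single base in each mature arm, was second. It stood at 6845 CPM in replicate 1 and at 7536 CPM in replicate 2, with a mean of 7191 ± 488 CPM and rank 30. No other gene is annotated over its hairpin. Mir30d (ENSMUSG00000065437.1; chr15:68341208-68341289, minus strand) came next, with 4343 CPM in replicate 1 and 4921 CPM in replicate 2, averaging 4632 ± 409 CPM at rank 43. It lies within Gm20732, a long non-coding RNA gene on the same strand, and 9 of its 82 bases also overlap Gm37296.

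The other members stood far lower. Mir30b (ENSMUSG00000065476.2; chr15:68337415-68337510, minus strand) reached 145 CPM in replicate 1 and 142 CPM in replicate 2, and 16 of its 96 bases overlap the non-coding gene Gm26621. Mir30c-1 (ENSMUSG00000065490.1) reached 64.2 CPM in replicate 1 and 68.4 CPM in replicate 2. Mir30c-2 (ENSMUSG00000065567.1), inside the long non-coding RNA gene Gm27028, reached 21.8 CPM in replicate 1 and 33.3 CPM in replicate 2, from 329 and 130 counts. These 3 genes ranked 175, 219 and 248 by mean level.

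**Figure D1:**
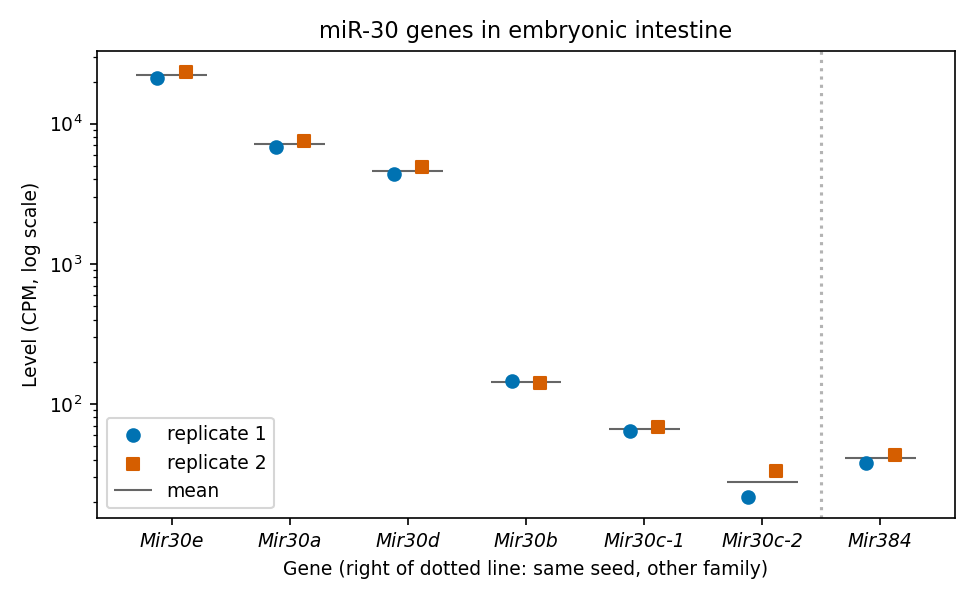
Level of each miR-30 gene and of Mir384 in CPM on a log axis, with a circle for replicate 1, a square for replicate 2 and a line for their mean. Mir30e, Mir30a and Mir30d lie at 4343 CPM or more and the other genes at 145 CPM or less.

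The order was the same in both libraries, and at each of the 5 steps down it the values of the 2 neighbours did not overlap. Mir30e exceeded Mir30a 3.07-fold in replicate 1 and 3.10-fold in replicate 2. The smallest step was that of Mir30a over Mir30d, 1.58-fold in replicate 1 and 1.53-fold in replicate 2 (mean log2 ratio 0.64 ± 0.03). The largest was that of Mir30d over Mir30b, 29.9-fold in replicate 1 and 34.7-fold in replicate 2. Below it, Mir30b exceeded Mir30c-1 2.26-fold and 2.07-fold, and Mir30c-1 exceeded Mir30c-2 2.95-fold and 2.05-fold, in replicates 1 and 2 in that order. From top to bottom the levels spanned 965-fold in replicate 1 and 703-fold in replicate 2. The steps to Mir30c-1 and Mir30c-2 and this span rest on miR-30c counts that leave out full-length reads of the 5′ arm product. The place of these genes in the order is therefore uncertain. Reads have the length of a mature arm, so counts were not divided by the length of the hairpin, which ran from 71 to 96 bases, and dividing by it left the order as it was. These are ratios of counts and not of molecules, since library preparation does not capture all small RNAs equally.

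**Figure D2:**
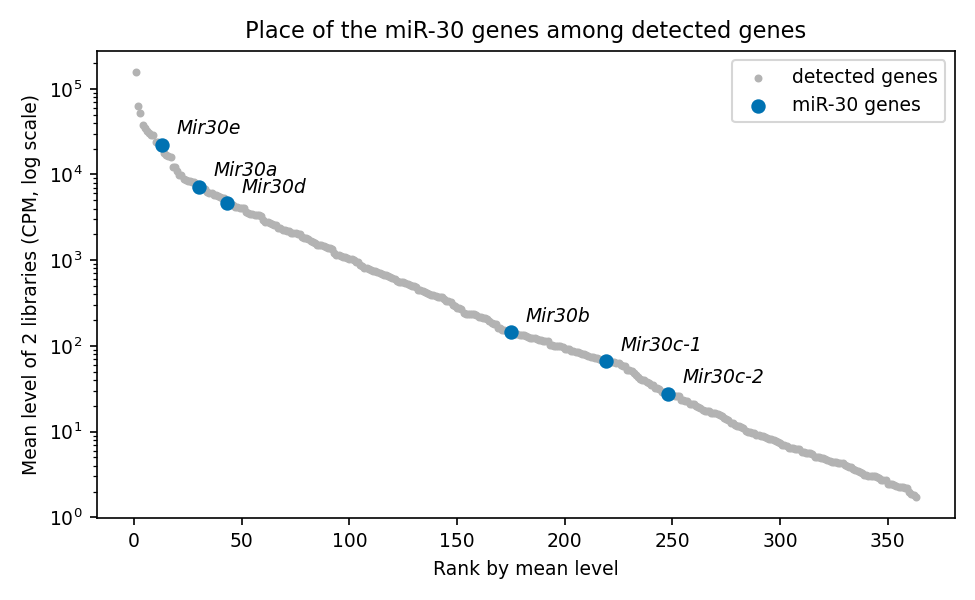
Mean level in CPM (log axis) of the 363 detected genes against their rank, with the miR-30 genes in blue. The family falls into 3 genes among the 43 most abundant and 3 genes at ranks 175 to 248.

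By level, the detected genes next to Mir30e were Mirlet7i above it, at 22671 ± 945 CPM, and Mir21a below it, at 17954 ± 2032 CPM. Mir30a stood between Mir200b, an epithelial microRNA (7212 ± 785 CPM), and Mir130b (7103 ± 84.3 CPM), and Mir30d between Mir18 (5313 ± 315 CPM) and Mir151 (4540 ± 127 CPM). None of the gaps to Mir200b and Mir130b exceeded the spread of Mir30a between libraries. Mir30b lay between Mir7-1 and Mir673, Mir30c-1 between Mir877 and Mir325, and Mir30c-2 between Mir153 and Mir34b. With 2 libraries no likeness of pattern beyond level could be measured.

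The 6 genes form 3 pairs in the genome, and in each pair 1 gene gave nearly all of the assigned counts. Mir30e and Mir30c-1 lie 2983 bases apart on chromosome 4, Mir30d and Mir30b 3697 bases apart on chromosome 15, and Mir30a and Mir30c-2 19361 bases apart on chromosome 1. In all 3 pairs the abundant gene lies first in the direction of transcription. Mir30e exceeded Mir30c-1 328-fold in replicate 1 (95% counting interval 308 to 349) and 342-fold in replicate 2 (303 to 387). Mir30a exceeded Mir30c-2 314-fold in replicate 1 (282 to 351) and 226-fold in replicate 2 (190 to 271). Mir30d exceeded Mir30b 29.9-fold in replicate 1 (28.7 to 31.3) and 34.7-fold in replicate 2 (31.9 to 37.9). The first 2 ratios involve a miR-30c gene, whose counts leave out full-length miR-30c-5p reads. The counts of Mir30e and Mir30a can hold both arms, so these 2 ratios do not set like against like and may be too high. Mir30d and Mir30b share no stretch of 20 bases with a hairpin at another place.

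**Figure D3:**
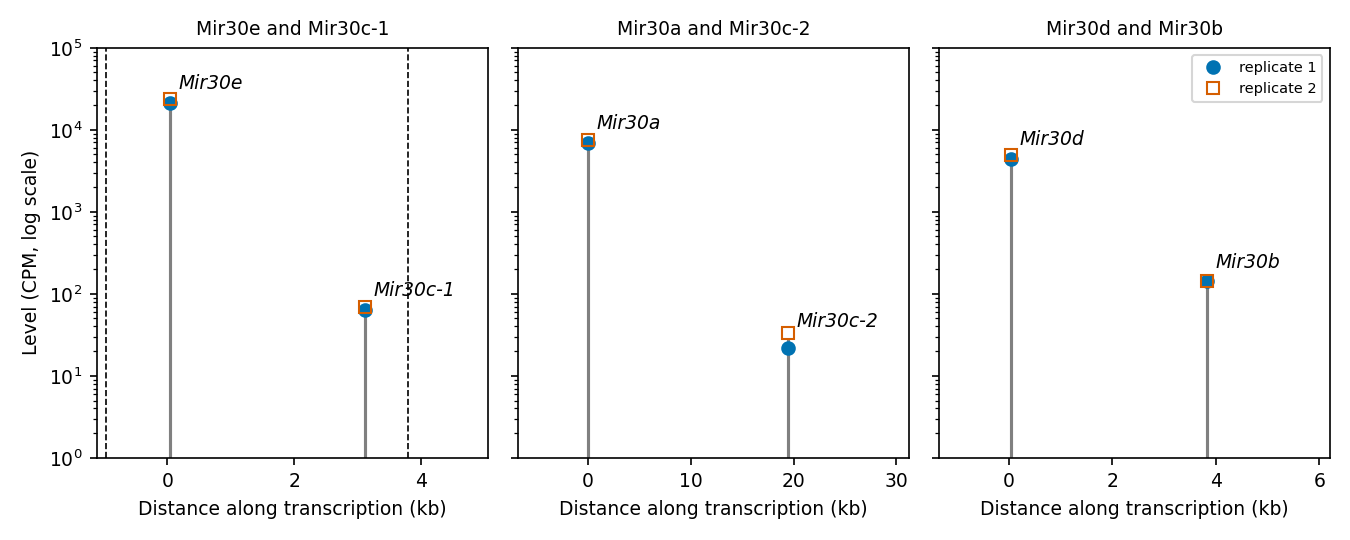
The 3 miR-30 pairs by distance in kb along the direction of transcription, each pair with its own distance scale. Level is in CPM on a log axis, with circles for replicate 1 and open squares for replicate 2. In each pair the first gene stands at least 29.9-fold above the second, and the dashed lines mark the intron of Nfyc that holds Mir30e and Mir30c-1.

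The pair in Nfyc held 65.0% of the family's counts in either library, a mean of 65.0 ± 0.0128% (SD, n = 2). Nfyc encodes a subunit of NF-Y, the factor that binds CCAAT boxes in promoters, and is the only protein-coding gene annotated over a member. In the transcript Nfyc-201, which has 10 exons, both hairpins lie in intron 5, of 4772 bases, with Mir30e 974 bases after exon 5 and Mir30c-1 634 bases before the next exon. Of 10 annotated Nfyc transcripts, 6 hold both hairpins in an intron, none holds either in an exon, and 4 do not span them. The counts used here cover microRNA genes, so the level of Nfyc messenger RNA was not analysed here.

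The other pairs followed in the order of their leading genes. The Mir30a pair gave 6867 CPM in replicate 1, against 7569 CPM in replicate 2, or 21.15% and 20.97% of the family. The Mir30d pair gave 4488 CPM in replicate 1, against 5063 CPM in replicate 2, or 13.8% and 14.0%. The Nfyc pair exceeded the Mir30a pair 3.07-fold and 3.10-fold, and the Mir30d pair 4.70-fold and 4.64-fold, in replicates 1 and 2 in that order.

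No read of either library lay on the strand opposite any of the 6 members. With 3 counts taken as the limit of a count of 0, such reads could reach 0.199 CPM in the deeper replicate 1, against 0.769 CPM in replicate 2. This is common, as 322 of the 363 detected genes (88.7%) had none either. At Mir30e it bears on Mir30f, a gene annotated over the same bases of chromosome 4 on the plus strand (120772606 to 120772697). Its mature product miR-30f (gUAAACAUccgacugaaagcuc, bases 2 to 8 in capitals) is complementary to 19 bases of the 3′ arm product of Mir30e. Its bases 2 to 8 are not the family's seed.

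Mir384 (ENSMUSG00000065499.1; chrX:105344282-105344369, minus strand), which carries the family's 5′ arm seed but little else of its sequence, was low. Its level was 38.2 CPM in replicate 1 and 43.6 CPM in replicate 2, between those of Mir30c-1 and Mir30c-2. The 6 miR-30 genes together exceeded it 851-fold in replicate 1 and 829-fold in replicate 2.

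Among broadly expressed families, miR-30 gave about as many assigned counts as miR-26 and fewer than let-7, which is associated with differentiation. Its counts were 1.01 times those of miR-26 in replicate 1 and 1.10 times in replicate 2. They were 0.447 times those of the let-7 genes in replicate 1 and 0.457 times in replicate 2. Of 12 let-7 genes listed, 10 entered this sum, and Mirlet7e and Mirlet7f-1 were not analysed here. This ratio and the share of Mirlet7g below may therefore be too high. In the sums, 2 of 3 miR-26 genes, 5 of 10 let-7 genes and 2 of 6 miR-30 genes share sequence. Reads that aligned in several places were left unassigned, so each sum may be too low. The ratios compare assigned counts only, and the share of Mir26b below may also be too high. Mir30e held 64.8% of miR-30 counts in either library. By comparison, Mir26b held 99.8% of miR-26 counts in each and Mirlet7g 49.6% and 49.5% of let-7 counts. In the miR-26 family, as in miR-30, the genes that share sequence were low. Mir26a-2 had 58.4 ± 3.70 CPM and Mir26a-1 had 15.7 ± 2.06 CPM. Among the let-7 genes, the lowest by mean level were Mirlet7a-1 (119 CPM), Mirlet7a-2 (114 CPM), Mirlet7c-1 (63.2 CPM) and Mirlet7c-2 (38.2 CPM). Mir30b shares no such sequence and had 143 CPM. Of the 4 intestinal epithelial genes 2 share sequence, and the lowest of the 4, Mir194-1, had 778 CPM. Over all detected genes the median level was 79.6 CPM for the 85 that share sequence and 160 CPM for the 278 that do not. The part of unassigned reads in these levels was not tested.

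**Figure D4:**
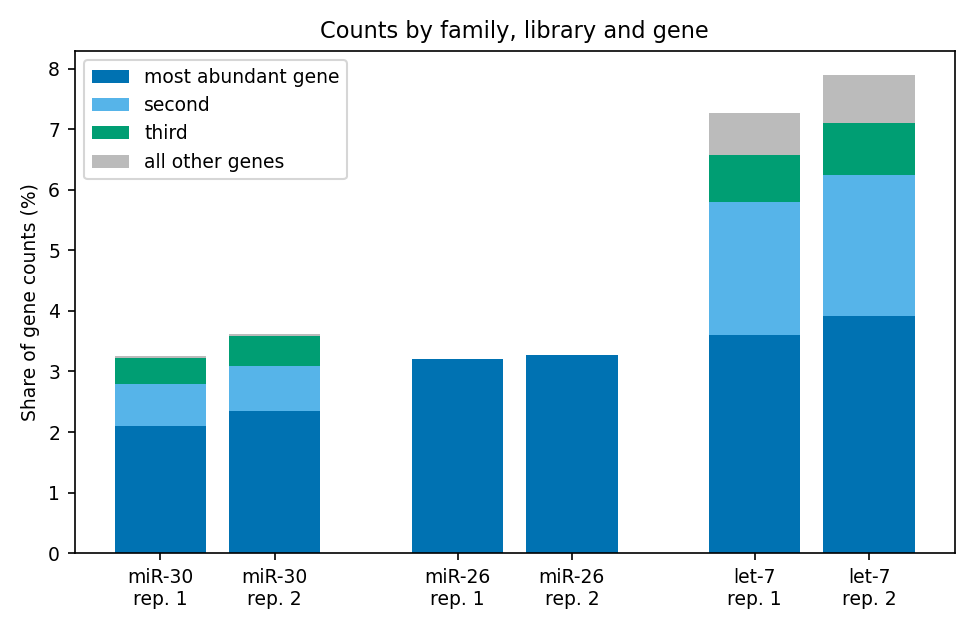
Share of gene counts in percent for the miR-30, miR-26 and let-7 families in replicates 1 and 2, stacked by gene, with the most abundant one at the bottom and all beyond the leading 3 in grey. The miR-30 bars reach 3.25% and 3.61%, and the first segment is Mir30e, Mir26b or Mirlet7g.

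The abundant miR-30 genes were slightly lower in replicate 1 than in replicate 2, all by about the same factor. The log2 difference of replicate 1 over replicate 2 was -0.15 for Mir30e, -0.14 for Mir30a and -0.18 for Mir30d, and -0.15 for the family sum (95% counting interval -0.16 to -0.14). The make-up of the family differed by at most 0.256 percentage points for any member, with Mir30e at 64.83% in replicate 1 and 64.82% in replicate 2, Mir30a at 21.1% and 20.9%, and Mir30d at 13.4% and 13.6%. Mir30c-2 differed most, by -0.61 (interval -0.91 to -0.31). Mir30c-1 (-0.09, interval -0.29 to 0.11) and Mir30b (0.03, interval -0.10 to 0.17) did not pass the test. Such a shift was not particular to miR-30. The let-7 sum differed by -0.12 (interval -0.13 to -0.12) and the miR-26 sum by -0.03 (interval -0.04 to -0.02).

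The test was a two-sided exact binomial test of how a gene's counts divide between the libraries, given their totals, with p-values adjusted over the 363 detected genes by Benjamini and Hochberg. Of the 6 members 4 passed at 0.05, all 4 lower in replicate 1, against 43.8% of all detected genes that passed in either direction and 29.8% that passed lower in replicate 1. The adjusted p from the exact test was 2.61e-170 for Mir30e, 3.33e-50 for Mir30d, 4.27e-46 for Mir30a and 0.000268 for Mir30c-2. The test compares these 2 libraries and says nothing of other embryos, and at this depth it passes very small differences. The median log2 difference was -0.15 over the 6 members and -0.06 over all detected genes. Of the detected genes, 50.4% differed by at least as much as Mir30e in either direction, and 7.99% by at least as much as Mir30c-2. The difference of Mir30c-2 rests on 329 and 130 counts of a gene that shares sequence.

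**Figure D5:**
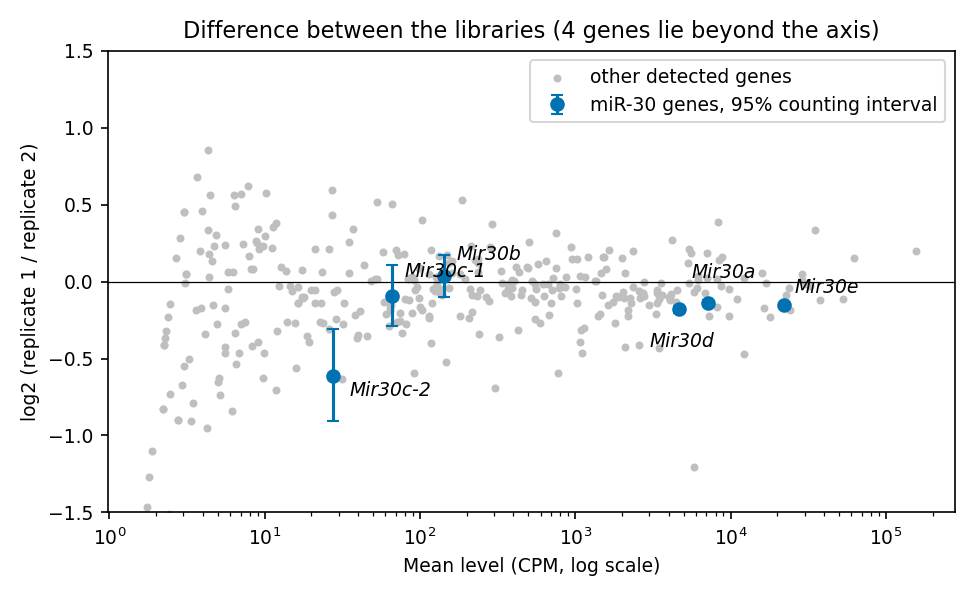
Log2 of replicate 1 over replicate 2 against mean level in CPM (log axis) for the detected genes in grey and the miR-30 genes in blue, with 95% counting intervals (4 genes lie beyond the axis). Mir30e, Mir30a and Mir30d lie together between -0.18 and -0.14, and Mir30c-2 lies lowest of the family at -0.61.

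Markers of cell types also differed between the libraries. The intestinal epithelial list was lower in replicate 1 by a log2 difference of -0.34 (0.898% of the counts in replicate 1 against 1.14% in replicate 2), with all 4 genes past the exact test. The smooth muscle list was higher in replicate 1 by 0.20 (17.2% in replicate 1 against 15.0% in replicate 2). This was the shift of Mir143, which held 97.9% of that list's counts in replicate 1 and 97.6% in replicate 2 and passed the test. Mir145a differed by -0.01 and did not pass. Larger shifts in the direction of the miR-30 genes were those of endocrine Mir375 (-1.20), the erythroid list (-0.66) and the liver gene Mir122 (-0.36). The erythroid shift was mainly that of Mir451a, which held 90.9% of that list's counts in replicate 1 and 92.9% in replicate 2. It passed the test, and the other erythroid gene, Mir144 (-0.31), did not. Endothelial Mir126a differed by -0.04, and the counting interval of the striated muscle list (0.21, interval -0.30 to 0.75) included no difference. The part of such differences in tissue make-up in the miR-30 values was not tested. In whole tissue, fewer cells of a type and less RNA per cell cannot be told apart.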

How the data were processed

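Small RNA of inserts under 30 bases, per the labels, was measured in 2 libraries of 1 group. The deposited values are raw counts of reads for each gene, in 1 column each for both strands together, the annotated strand and its opposite. The assembly was mm10 and the annotation GENCODE M4, per the text deposited with each table. The software used is not given in the sources used here. Unaligned reads (12.4% and 13.8% of reads in replicates 1 and 2), reads with several alignments and reads on no gene (2.20% and 2.10%) stayed out of totals and tests. Symbols and coordinates came from GENCODE M21 (GRCm38), which held 1894 of the 1973 identifiers. The identifier of Mir30a has another version there, so its interval may not be the one counted.

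CPM, Wilson and exact intervals, and exact binomial tests were computed with scipy 1.17.1, and alternative scalings with edgeR 4.0.16 (TMM) and DESeq2 1.42.0. The test script was tried on simulated counts with counting error only, so that trial does not cover other variation between libraries. Genes were called detected at 10 or more counts in each library and said to share sequence with an identical stretch of 20 bases at another place. edgeR's own test was not used, since 1 group of 2 libraries leaves no comparison for it. Described genes were the 6 members, genes of the same seed, neighbours in level, genes on the opposite strand, the host and the miR-26 and let-7 lists. Members and lists were chosen with earlier results of these data known. Liver, striated muscle, erythroid, endothelial and endocrine marker lists were also summed. They gave 0.00398% and 0.00510% (Mir122), 0.00115% and 0.000999%, 0.0255% and 0.0402%, 2.35% and 2.42% (Mir126a), and 0.350% and 0.806% (Mir375) in replicates 1 and 2.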

Additional observations from a re-analysis of the deposited data

How the results depend on the processing

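With all reads of the tables as denominator the family share was 1.94%, and without the most abundant gene in the total it was 4.06%, as the construction of either total implies. Counting both strands, keeping only detected genes or leaving out the 2 members that share sequence gave between 3.33% and 3.43%, and single libraries gave 3.25 to 3.61%. The share of the Nfyc pair was 65.0% in every setting tried. Without the members that share sequence it was 65.0003%, further from the main 65.0163% than the SD between libraries (0.0128%). These settings could hardly change the make-up of the family. All members were detected without opposite-strand counts, and Mir30c-1 and Mir30c-2 averaged only 0.194% and 0.0797% of its counts. No setting added back the unassigned reads, so their part in the family share and the pair share was not tested. Under TMM or DESeq2 scaling, no minimum count, replicate 1 thinned to the depth of replicate 2, and both strands, 4 members passed the exact test each time, all lower in replicate 1, and all 30 member differences kept their direction and side of the threshold. With no minimum count these log2 differences could not change, since all members were already detected. Counting both strands changed only the totals they were scaled to. The size of the differences depends on the scaling: Mir30e differed by -0.09 with TMM. Over all genes tested, 40.8% passed with TMM, 41.0% with DESeq2 scaling, 39.4% with replicate 1 thinned and 45.2% with both strands. With no minimum count 152 of 768 (19.8%) passed. Division by hairpin length was chosen after seeing the data. No paired analysis was possible because the design holds a single group. With 2 libraries, differences between embryos cannot be tested. Mir30c-2, with 130 counts in replicate 2, had the widest counting interval of the 6 members.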
